A study of Mus musculus with 3 samples.

Results

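Tnrc18, Sptbn4, Gtf2ird1 and Prkar1b are 4 of 21887 placed protein-coding mouse genes whose surroundings hold many peaks of the transcription factor MEIS2. They were chosen by their measured values, namely many MEIS2 peaks and few peaks of the library made without an antibody, so their peak counts are given as a description and with no test. The locus of each gene was its body plus 50 kb on either side, 191 to 233 kb in all. The assay was CUT&Tag: a transposase is brought to the antibody in intact cells or nuclei, and it cuts and tags the DNA beside the bound protein. All 3 libraries were made from 100000 cells of the lateral ganglionic eminence, where the projection neurons of the striatum are born, taken at embryonic day 14.5 from CD1 mice that were wild type. A mouse polyclonal MEIS2 antibody was used in 2 of them (replicates 1 and 2) and no antibody in the third. The labels give neither the number of embryos nor whether the replicates came from separate litters, and peak lists hold no expression with which to check the dissected tissue.

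MEIS2 is a homeodomain protein of the TALE class, which binds DNA at a short TGACAG core, often next to a PBX partner, and is active in striatal neuron development. The 4 genes belong to unrelated families. Tnrc18 encodes a large nuclear protein with a BAH domain, linked to gene silencing. Sptbn4 encodes a beta spectrin of the membrane skeleton that holds ankyrin and ion channels at the axon initial segment and at nodes of Ranvier. Gtf2ird1 encodes a DNA-binding protein of the TFII-I family and lies in the region deleted in Williams-Beuren syndrome. Prkar1b encodes a neuronal regulatory subunit of protein kinase A, which holds the catalytic subunits inactive until it binds cyclic AMP. All positions are mm10 (GRCm38). Tnrc18 (chr5:142724602-142823668), Gtf2ird1 (chr5:134357661-134456867) and Prkar1b (chr5:139017304-139150703) lie on the same chromosome within 8.27 Mb of one another, and Sptbn4 lies at chr7:27356383-27447704. Each of the 4 is transcribed from the minus strand, so its 5′ end is the higher coordinate.

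The 4 loci held 110 peaks of replicate 1, 85 of replicate 2 and 2 of the no-antibody library, from lists of 78060, 82093 and 9869 peaks on chromosomes 1 to 19, X and Y. The lists rest on 7618406, 6559629 and 6337375 tags. A replicate 1 peak was called reproducible where it shared 1 bp or more with a peak of replicate 2 and was clear of every no-antibody peak. By this rule 71 of the 110 replicate 1 peaks were reproducible (64.5%, 95% Wilson interval 55.3 to 72.9), against 61.2% over the whole list. From the other side, 70 of 85 replicate 2 peaks were shared (82.4%, 72.9 to 89.0), against 59.2% over its list. The rule used these same peaks, so nothing is read from either share. Here and below, the Wilson intervals treat peaks as independent and cover counting error only. Peaks of 1 locus can share surrounding tags and a partner, so they are not independent. A distal peak is one whose summit lies more than 1 kb from every annotated gene end, and 62 of the 71 were distal. Fold enrichments below are the authors' values, the pileup of tags at the summit plus 1 over the locally expected pileup plus 1, written for replicate 1 and then replicate 2.

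**Figure D1:**
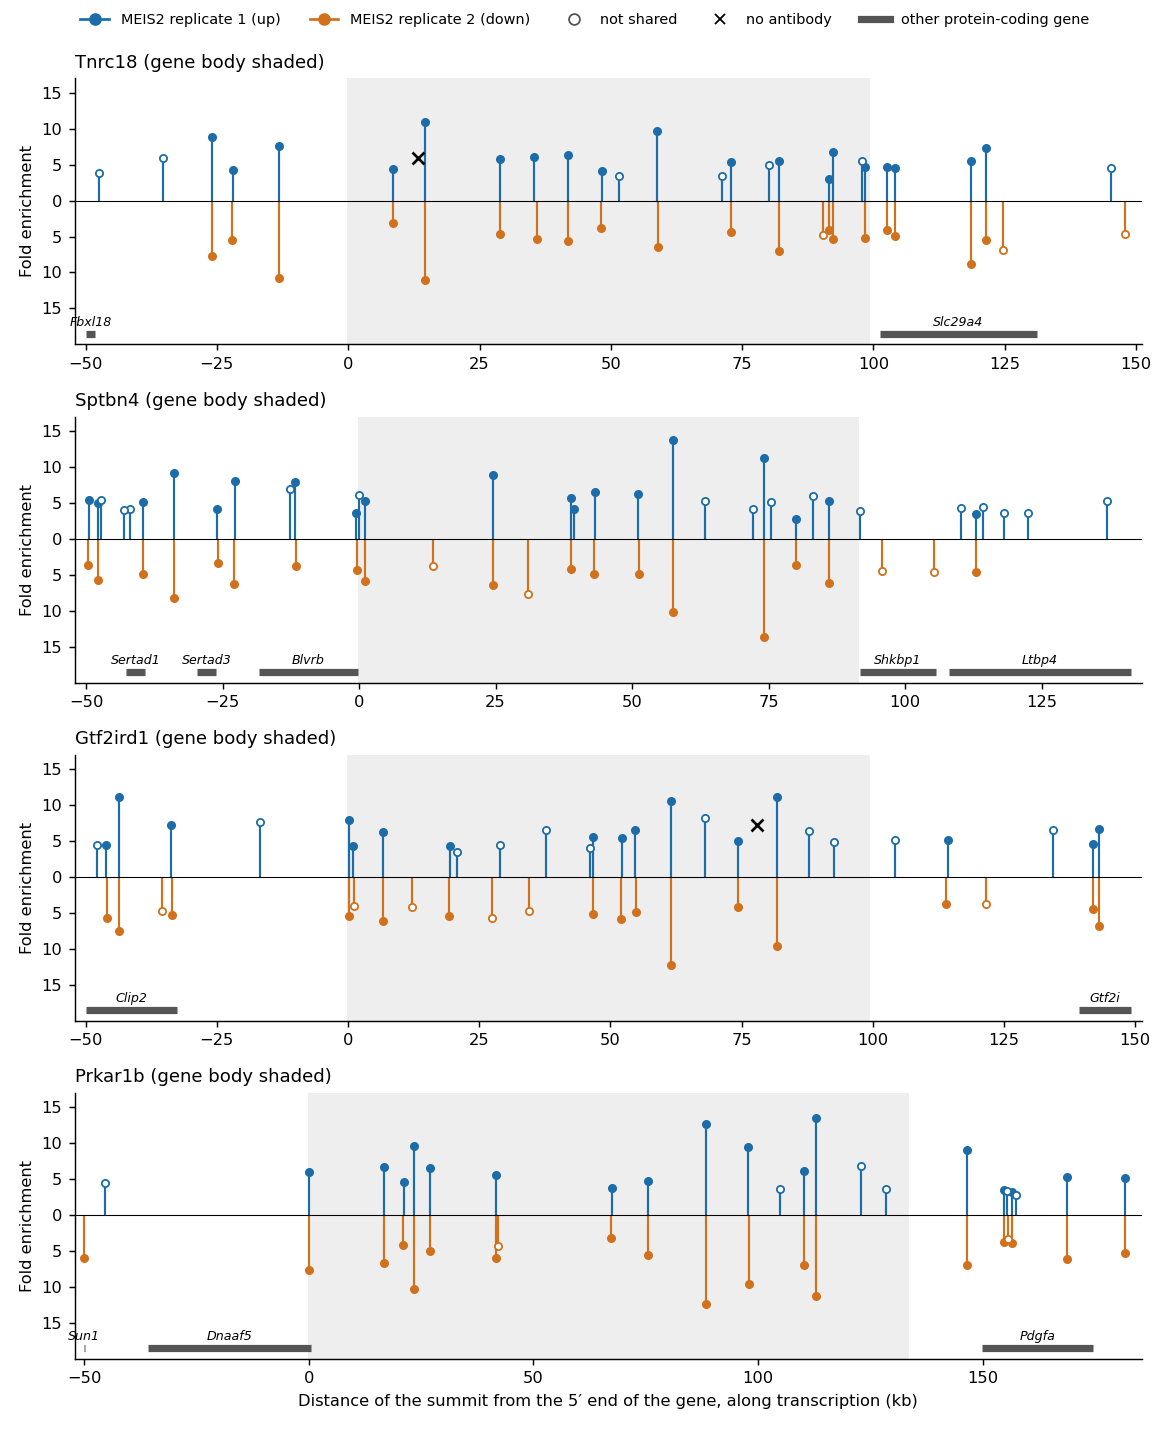
Peaks along the 4 loci. The x axis is the distance of each summit from the gene's 5′ end in kb, the y axis the fold enrichment, with replicate 1 drawn upwards and replicate 2 downwards, filled where the peak is shared, and the 2 no-antibody peaks as crosses. Shared peaks run through all 4 gene bodies, and the peak with the highest lower value of the 2 replicates at each locus, 10.6 or more, lies inside the gene and at least 14.6 kb from its 5′ end.

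The annotated transcription starts of the 4 genes differed in whether MEIS2 peaks reached them. The 300-base window of a start, from 250 bases before it to 50 after, overlapped a reproducible peak at 7 of 11 annotated starts in 3 of the genes, against 45.4% of the starts of all protein-coding genes. At Gtf2ird1 the peak chr5:134456336-134456911 (fold enrichments 7.96 and 5.50) had its summit 6 bp from the single annotated start in replicate 1 and 48 bp in replicate 2. Sptbn4 had a peak at its outer start, chr7:27446144-27446794 (5.20 and 5.89), with summits 52 and 38 bp away. Another, chr7:27396280-27396803 (6.18 and 4.85), covered an inner start 51.2 kb from the gene's 5′ end, with summits 8 and 157 bp away. It also reached the window of the neighbouring inner start, but not that start itself. Both Sptbn4 peaks count as distal, since the annotated gene end lies beyond them. Prkar1b had a peak over its 2 outer starts in replicate 1, chr5:139149789-139150836 (5.95 and 7.63), and its replicate 2 partner covered only the outermost. This peak also covers the end of Dnaaf5, a dynein assembly factor gene that overlaps it. A second lay over an inner start 21.0 kb into the gene, chr5:139129371-139129985 (4.61 and 4.12), with summits 184 and 29 bp away. Tnrc18 was the exception. Its single annotated start lies 6.01 kb inside the gene from the 5′ end and had no peak in any library. The nearest MEIS2 summits lay 2462 bp (replicate 1) and 2486 bp (replicate 2) from that start.

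The bases before 5 of these starts are printed to show the sequence at starts of 3 genes that a peak covered in both replicates, and at the Tnrc18 start, which none reached. The peaks do not cover all of the printed bases. Of 250 bases, 195 lay under a replicate 1 peak and 105 under a replicate 2 peak at Gtf2ird1, 205 and 99 at the outer Sptbn4 start, 250 and 121 at the inner one, 233 and 250 at Prkar1b, and 0 at Tnrc18. Each sequence is the 250 bases before the start, 5′ to 3′ on the minus strand, from RefSeq (GRCm38.p6). The positions are chr5:134456717-134456966 for Gtf2ird1, chr7:27446590-27446839 and chr7:27396554-27396803 for the outer and inner starts of Sptbn4, chr5:139129753-139130002 for the inner start of Prkar1b and chr5:142817663-142817912 for Tnrc18. Capitals mark the TGACAG core.
Gtf2ird1 start: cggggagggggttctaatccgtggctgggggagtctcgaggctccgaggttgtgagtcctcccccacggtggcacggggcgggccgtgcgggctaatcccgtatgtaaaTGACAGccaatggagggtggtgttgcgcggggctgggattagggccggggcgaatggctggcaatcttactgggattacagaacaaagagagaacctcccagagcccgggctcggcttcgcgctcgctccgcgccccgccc
Sptbn4 outer start: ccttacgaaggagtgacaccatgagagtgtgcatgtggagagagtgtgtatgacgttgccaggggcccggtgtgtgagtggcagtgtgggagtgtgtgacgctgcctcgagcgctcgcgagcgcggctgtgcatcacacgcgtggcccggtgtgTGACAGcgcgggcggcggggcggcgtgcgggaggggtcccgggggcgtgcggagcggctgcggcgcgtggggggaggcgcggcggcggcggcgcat
Sptbn4 inner start: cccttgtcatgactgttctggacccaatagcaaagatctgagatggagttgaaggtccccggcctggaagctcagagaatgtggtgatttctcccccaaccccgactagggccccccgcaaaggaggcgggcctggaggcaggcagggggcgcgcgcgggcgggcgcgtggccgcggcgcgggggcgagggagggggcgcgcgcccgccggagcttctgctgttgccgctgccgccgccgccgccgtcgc
Prkar1b inner start: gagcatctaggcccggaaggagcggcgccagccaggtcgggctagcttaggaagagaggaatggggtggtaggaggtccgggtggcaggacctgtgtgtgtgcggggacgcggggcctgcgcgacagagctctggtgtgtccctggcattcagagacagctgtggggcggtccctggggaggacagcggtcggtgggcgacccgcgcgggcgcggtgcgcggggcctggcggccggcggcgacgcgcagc
Tnrc18 start: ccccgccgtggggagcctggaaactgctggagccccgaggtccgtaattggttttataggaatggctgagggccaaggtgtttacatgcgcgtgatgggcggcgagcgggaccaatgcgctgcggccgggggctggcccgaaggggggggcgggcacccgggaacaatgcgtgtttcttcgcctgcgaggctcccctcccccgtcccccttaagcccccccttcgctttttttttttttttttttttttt

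Searched on both strands of these 250 bases, TGACAG occurred at the Gtf2ird1 start, beginning 141 bases before it, and at the outer Sptbn4 start, beginning 96 bases before it. The Sptbn4 match lay inside the peaks of both replicates, and the Gtf2ird1 match inside the replicate 1 peak but outside that of replicate 2. None of the other 9 annotated starts of the 4 genes had it, and 15.9% of the 32851 RefSeq promoter windows did. The longer PBX and MEIS motif TGATTGAC (0.691% of all windows) and the homeodomain motif TAATTA (4.84%) were in none of the 11. No 2 of these motifs overlapped there, a match is only a run of letters, and its absence from this window says nothing of binding. At the 7 starts whose window a reproducible peak overlapped, G and C made up 62.8% to 75.2% of the whole 250 bases, against a median of 52.4% over all promoters. The other 4 starts ranged from 48.4% to 61.6%, with Tnrc18 the highest of them. Base composition thus moved with peak overlap at these starts, and its part in the result was not tested. Several of these starts share a peak or part of their bases, so they are not separate cases. The same split over all promoters was not made.

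Tnrc18 had 26 replicate 1 peaks, 22 replicate 2 peaks, 19 reproducible peaks and 1 no-antibody peak in its locus. The gene body held 12 of the 19, placed from 8.47 kb to 98.3 kb from the 5′ end, and 10 of these were distal. The strongest, by the lower of its 2 fold enrichments, was chr5:142808822-142809174 (10.9 and 11.1), inside the gene 14.6 kb from the 5′ end. Its replicate 1 summit lay 8626 bp from the annotated start. The next 2 lay upstream of the gene, at chr5:142836668-142837128 (7.64 and 10.7) and chr5:142849386-142849750 (8.89 and 7.77). These 3 values stood at the 89.9, 70.9 and 73.3 percentiles of all reproducible peaks, so stronger peaks lie elsewhere in the genome. The widest peak, chr5:142787272-142788617, spanned 1346 bp in replicate 1 and 1350 bp in replicate 2, with fold enrichments of 6.0 and 5.38. The highest replicate 1 pileup, 32 tags, was at chr5:142720836-142721194, inside the neighbouring transporter gene Slc29a4 and 1448 bp from its end. Fold enrichment there was only 4.71 and 4.12, with a locally expected pileup of 6.0 tags in replicate 1. The longest gap between neighbouring reproducible summits, 21.6 kb, spans the annotated Tnrc18 start. The shortest, 771 bp, separated chr5:142731211-142731551 from chr5:142732028-142732389. The single no-antibody peak, chr5:142810196-142810494 (fold enrichment 5.91, pileup 10), lay near the strongest MEIS2 peak and overlapped no MEIS2 peak.

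Sptbn4 had the largest number of replicate 1 peaks of the 4, 34, but 22 in replicate 2, and 19 were reproducible. It had no no-antibody peak, and 15 of its replicate 1 peaks were in neither other list. The 2 strongest reproducible peaks lay inside the gene, at chr7:27373501-27373743 (11.2 and 13.7) and chr7:27389984-27390402 (13.7 and 10.2), 74.1 and 57.6 kb from the 5′ end. The third, chr7:27481536-27481825 (9.20 and 8.21), lay upstream in the noncoding gene Gm38972. They stood at the 90.6, 87.6 and 76.2 percentiles. The strongest was also the highest in pileup, with 34 tags in replicate 1 and 35 in replicate 2, although it was only 243 bp wide. Peaks at ends of neighbours accounted for 4 of the 19: at Blvrb (biliverdin reductase B, chr7:27447990-27448311, 218 bp from the Blvrb end), at the pseudogene Pgam1-ps2, at Sertad3, and where Sertad1 meets Gm38972, whose peak chr7:27486830-27487538 was the widest of the locus at 709 and 595 bp. The Blvrb peak also lay upstream of Sptbn4 within 1 kb of its 5′ end, so it is a peak at the end of both genes. The closest pair of summits, 597 bp apart at chr7:27408320-27408496 and chr7:27408768-27409055, matched a single replicate 2 peak of 639 bp and is 1 site in that library. On the 3′ side only 1 peak was reproducible, chr7:27334549-27334976 (3.48 and 4.62) in Ltbp4, and the gap from it to the first peak in Sptbn4 was 27.0 kb.

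At Gtf2ird1, 16 of 27 replicate 1 peaks were reproducible, replicate 2 listed 21, and the no-antibody library 1. The 2 strongest, chr5:134395078-134395587 (10.6 and 12.3) and chr5:134375090-134375307 (11.1 and 9.56), lay in the gene body 61.5 and 81.7 kb from the 5′ end. The third was in the neighbour Clip2, which encodes a microtubule-binding linker, at chr5:134500419-134500667 (11.1 and 7.56), and its 31 tags were the highest replicate 1 pileup of the locus. Their percentiles were 89.0, 85.0 and 70.3. The widest peak lay in Gtf2i, the gene of the founding TFII-I protein, at chr5:134313465-134314681, with 1217 and 1135 bp and fold enrichments of 6.65 and 6.83. At the 5′ end 2 replicate 1 peaks with summits 705 bp apart (chr5:134455894-134456104 and the start peak) matched a single replicate 2 peak of 810 bp. Upstream of them the locus was empty of reproducible peaks for 33.9 kb, its longest gap, as far as Clip2. The no-antibody peak chr5:134378789-134379092 (fold enrichment 7.24, pileup 14) lay in the gene body between the second-strongest MEIS2 peak and a weaker one and overlapped neither.

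Prkar1b had 23 replicate 1 peaks, 20 replicate 2 peaks, 17 reproducible peaks and no no-antibody peak. Its gene body held 12 of the 17 and 11 of the 16 distal ones. The strongest were chr5:139062069-139062325 (12.6 and 12.4), chr5:139037565-139037890 (13.5 and 11.3) and chr5:139127122-139127408 (9.59 and 10.3), all inside the gene, 88.5, 113 and 23.4 kb from the 5′ end. Their percentiles were 93.1, 90.8 and 85.4, and the first of these was the highest of the 71 peaks by the lower fold enrichment. The peak chr5:139052591-139053016 followed closely (9.53 and 9.57). The highest pileup, 37 tags, was at the second, and the widest peak, 1048 bp in replicate 1 and 643 bp in replicate 2, was the one at the 5′ end. The other 5 reproducible peaks lay on the 3′ side, around and inside Pdgfa, which encodes a platelet-derived growth factor chain, and none lay upstream. A replicate 2 peak at Sun1, chr5:139200350-139201194, lies on the upstream edge of the locus, and its replicate 1 partner has its summit just outside. In Pdgfa the peaks chr5:138994127-138994303 (3.19 and 3.93) and chr5:138995788-138996179 (3.45 and 3.72) were the closest pair, 1717 bp apart. They had pileups of 22 and 24 but locally expected pileups of 6.21 and 6.24, the highest at the 4 loci in replicate 1. The longest gap, 33.6 kb, lay across the 3′ end of the gene.

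Counted by distal peaks, Tnrc18 had 17, Prkar1b 16, Sptbn4 15 and Gtf2ird1 14, which ranked 15, 19, 37 and 49 among protein-coding genes. The median over all 21887 genes was 2, and 66 genes (0.302%) had at least 14. Longer genes have wider windows, and all 4 ranked lower by density. Tnrc18 had 8.54 distal peaks per 100 kb (rank 48), Sptbn4 7.84 (rank 77), Gtf2ird1 7.03 (rank 125) and Prkar1b 6.86 (rank 149), against a median of 1.31 over all genes. Among the 1026 other genes within the length range of the 4, the median was 1.04 per 100 kb, the 95th percentile 3.41 and the highest 6.76. With a stricter peak threshold (−log10 q of at least 5) Tnrc18 had 12 distal peaks (density rank 43), Prkar1b 10 (rank 328), Gtf2ird1 8 (rank 393) and Sptbn4 7 (rank 679). With replicate 1 left out, the density rank was 78 for Tnrc18, 160 for Sptbn4, 79 for Gtf2ird1 and 386 for Prkar1b, and with replicate 2 left out it was 177, 62, 94 and 499. The order of the 4 among themselves differed between these settings. They reuse the lists that chose the genes, so nothing is read from their high ranks. The window of a gene held no no-antibody peak in 73.4% of genes, and Sptbn4 and Prkar1b are of that kind. Genes next to the 4 in rank included Gm40363 (17 distal peaks, with 15 no-antibody peaks in its window), Shank2 (17, over a gene of 448 kb), Ryr1 (15) and Pcdha8 (14). The likeness is in this count alone.

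**Figure D2:**
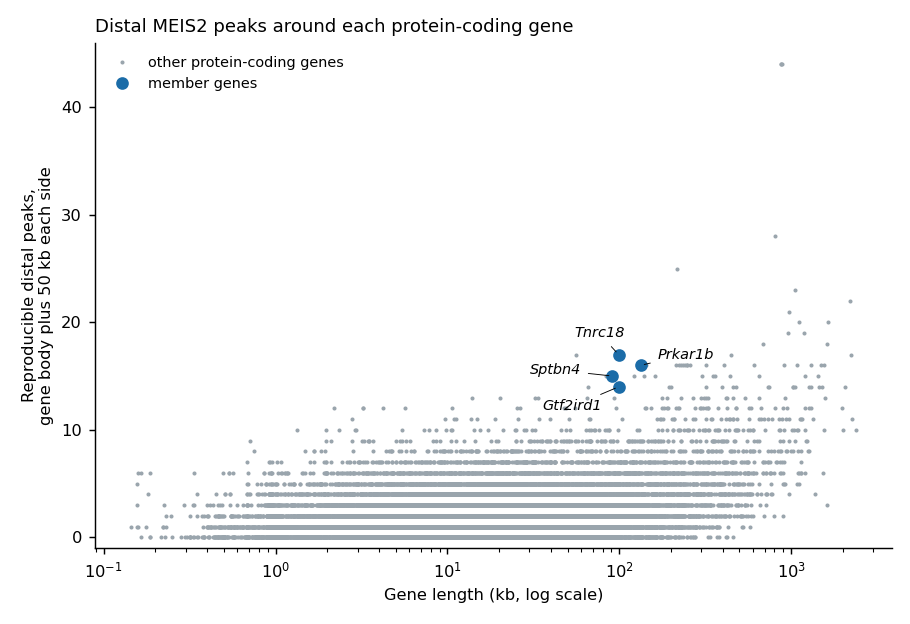
Each point is a protein-coding gene, with its length in kb on a log scale on the x axis and the number of reproducible distal peaks in its body plus 50 kb each side on the y axis. The 4 named genes, at 14 to 17 peaks, stand above most genes of like length, whose 95th percentile is 7 peaks and highest count 15, and some longer genes hold more.

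Distal peaks were denser in the bodies of the 4 genes than in their flanks, with peaks at gene ends left out of both. The bodies held 39 of the 62 (62.9%, Wilson interval 50.5 to 73.8), or 9.22 per 100 kb. The flanks held 23, or 5.75 per 100 kb. The body was 99.1 of 199 kb at Tnrc18 and 91.3 of 191 kb at Sptbn4. It was 99.2 of 199 kb at Gtf2ird1 and 133 of 233 kb at Prkar1b. Among the 1026 other genes in the length range of the 4, the medians were 0.966 per 100 kb of body and 1.04 per 100 kb of window. In each of the 4 genes the body was the denser part. The densities were 10.1 against 7 at Tnrc18, 11 against 5 at Sptbn4, 8.06 against 6 at Gtf2ird1 and 8.25 against 5 at Prkar1b. With the peaks at gene ends kept, the flanks of Sptbn4 held 9 per 100 kb against 11 in its body, so that most of its contrast was gone. The same count gave 12.1 against 7 at Tnrc18, 10.1 against 6 at Gtf2ird1 and 9 against 5 at Prkar1b. The difference was not tested, since peaks of a locus are not replicates and the genes were chosen for their peaks. In the 500 kb beyond each side of the locus the density was lower again, 3.80 per 100 kb at Tnrc18, 2.60 at Sptbn4, 4.20 at Gtf2ird1 and 3.80 at Prkar1b. The loci were chosen for their many peaks, so nothing is read from the lower density outside them. These surroundings were themselves above the median gene window of 1.31. They also hold many genes, from 16 protein-coding genes around Prkar1b to 31 around Sptbn4. Among the 62 distal peaks, 9 summits lay 1 kb or less from an annotated start (14.5%, 7.83 to 25.3), against 3.91% of all distal reproducible peaks. The latter include peaks far from any gene, and the loci were chosen for their peaks, so nothing is read from this contrast. The 9 summits were 2 at Sptbn4 starts, 1 at the inner Prkar1b start, and 6 at starts of the neighbours Slc29a4, Ltbp4, Gtf2i and Pdgfa. Without them the 4 genes had 53 distal peaks.

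Gaps between peaks ranged widely at each locus. The median gap between neighbouring reproducible summits was 6.58 kb at Tnrc18, 7.16 kb at Sptbn4, 7.46 kb at Gtf2ird1 and 10.7 kb at Prkar1b. Over the 14796 gene loci with at least 3 reproducible peaks the median of this gap was 16.7 kb, and 7.73%, 9.88%, 11.2% and 26.5% of loci were at or below the 4 values. Spacing follows from the count that chose the genes and adds no independent evidence. Gaps ran from 597 bp to 33.9 kb, and 8 of the 67 were under 2 kb. Each locus had at least 1 pair under 2 kb, and each also had a stretch of over 20 kb without a reproducible peak.

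**Figure D3:**
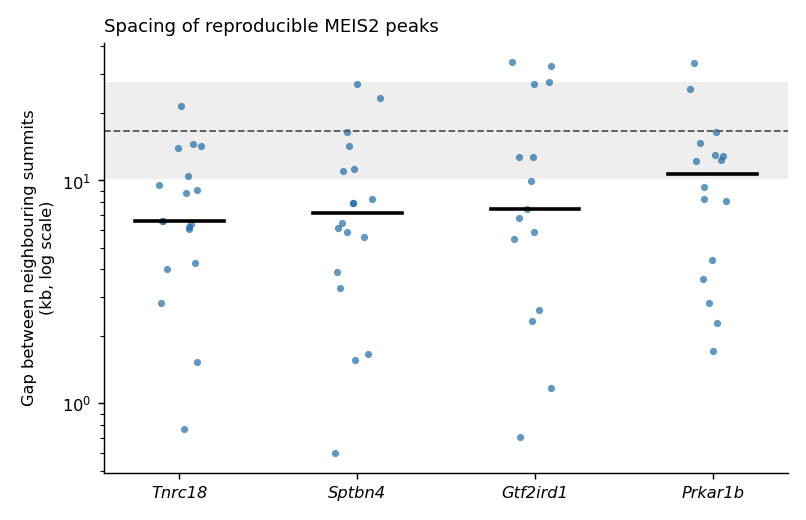
Gaps between neighbouring reproducible summits (kb, log scale) at each locus, 1 point per gap, with a bar at the locus median. The dashed line and shaded band are the median (16.7 kb) and the quartiles (10.3 and 27.3 kb) of the median gap over 14796 gene loci, and the 4 medians lie at 6.58 to 10.7 kb.

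Peaks at these crowded loci had ordinary pileups but low fold enrichments. The 71 reproducible peaks had a median replicate 1 pileup of 17 tags, the same as the 17 of all 47809 reproducible peaks, and a median replicate 2 pileup of 12, again the same as the 12 of all. Their median fold enrichment was 5.62 in replicate 1 and 5.43 in replicate 2, against 7.26 and 6.38 over all. Above those medians in both replicates were 16 of 71 (22.5%, Wilson interval 14.4 to 33.5), against 37.8% of all reproducible peaks. By locus, the median fold enrichment was 5.48 and 5.38 at Tnrc18, 5.39 and 4.87 at Sptbn4, 5.95 and 5.50 at Gtf2ird1 and 5.95 and 6.15 at Prkar1b. All 8 of these medians lay below those of the whole set. Pileup set the loci apart more than fold enrichment did. Replicate 1 medians were 21 at Tnrc18, 19 at Prkar1b, 16 at Sptbn4 and 12.5 at Gtf2ird1, and the replicate 2 medians were 15, 16, 10 and 11.

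The remaining part of the ratio, the locally expected pileup, was high around these peaks. It can be recovered from the deposited pileup and fold enrichment, and it measures how many tags the caller found in the surrounding 10000 bp, never less than the library average of 0.701 tags in replicate 1 and 0.568 in replicate 2. Its median at the 71 peaks was 1.98 in replicate 1 and 1.30 in replicate 2, against 1.19 and 0.859 over all reproducible peaks. It was above those medians at 59 of 71 peaks in replicate 1 (83.1%, 72.7 to 90.1) and at 56 in replicate 2 (78.9%, 68.0 to 86.8). Tnrc18 had the highest locus medians, 2.37 and 1.85, and Gtf2ird1 the lowest, 1.52 and 1.18. Only 1 of the 62 distal peaks (1.61%, 0.285 to 8.59), chr5:142836668-142837128 upstream of Tnrc18, was within 5% of the replicate 1 average, against 30.5% of all distal reproducible peaks. By the way the ratio is built, a peak of given pileup has a lower fold enrichment where the surrounding tags are denser. Those tags include the peak's own and those of any neighbouring peak within the 10000 bp, and the genes were picked for many peaks. The expected pileup and the fold enrichment are thus not independent of that choice, and the part of crowding in them was not tested. Tags between peaks are not listed, so whether the surrounding tags were also dense in the no-antibody library was not tested.

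**Figure D4:**
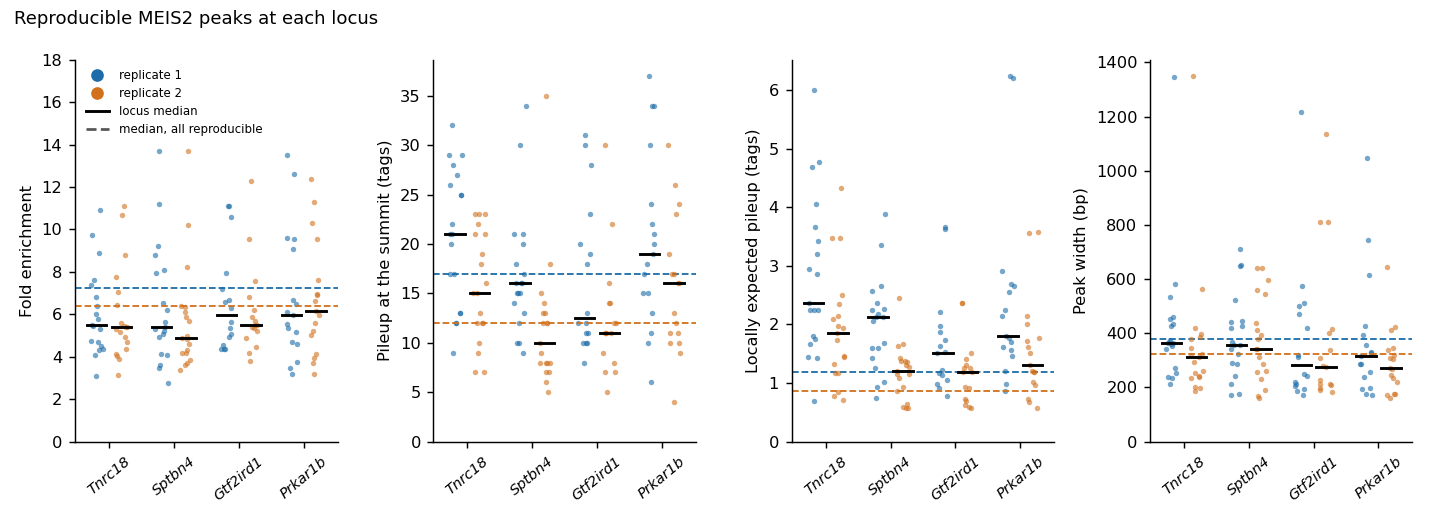
Fold enrichment, pileup (tags), locally expected pileup (tags) and width (bp) of the reproducible peaks at each locus, 1 point per peak, replicate 1 in blue and replicate 2 in orange, with bars at the locus medians and dashed lines at the medians of all 47809 reproducible peaks. Locus medians of fold enrichment lie below the dashed lines and those of the expected pileup above them, in both replicates.

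Peak widths were close to those of other distal peaks. The median width of the 71 was 353 bp in replicate 1 and 308 bp in replicate 2. All reproducible peaks had medians of 378 and 324 bp, all distal ones 330 and 293 bp. The distal peaks of the 4 loci had 341 and 307 bp. Gtf2ird1 and Prkar1b had the narrowest peaks in replicate 1, with medians of 281 and 317 bp, and Tnrc18 (365 bp) and Sptbn4 (357 bp) the widest. A width over 1000 bp in replicate 1 was seen at 3 of the 71 peaks, namely those in Tnrc18 and Gtf2i and at the Prkar1b 5′ end given above. The narrowest, at 172 bp, equal the shortest length the caller reports in that library.

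The 2 replicates ranked the peaks of the 4 loci alike. Across the 71 peaks the Spearman correlation of fold enrichment was 0.748, and across all reproducible peaks it was 0.724. These are descriptions across peaks of the same 2 libraries, which share local tag density and are not independent. By locus it was 0.907 at Prkar1b (17 peaks), 0.744 at Tnrc18 (19), 0.676 at Sptbn4 (19) and 0.558 at Gtf2ird1 (16). Paired summits lay a median of 42 bp apart, against 41 bp over all. Fold enrichment was higher in replicate 1 at 39 of 71 peaks, where 66.7% of all reproducible peaks were. The peaks seen in replicate 1 alone, 39 at the 4 loci, had a median fold enrichment of 4.47 and a median pileup of 13. Over the whole list such peaks had 5.13 and 9. Sptbn4 had 15 of these 39 and Gtf2ird1 11, among them chr5:134388802-134389021 in the gene body with the highest fold enrichment of the 39, 8.16. Replicate 2 alone had 15, led by 6 at Gtf2ird1.

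**Figure D5:**
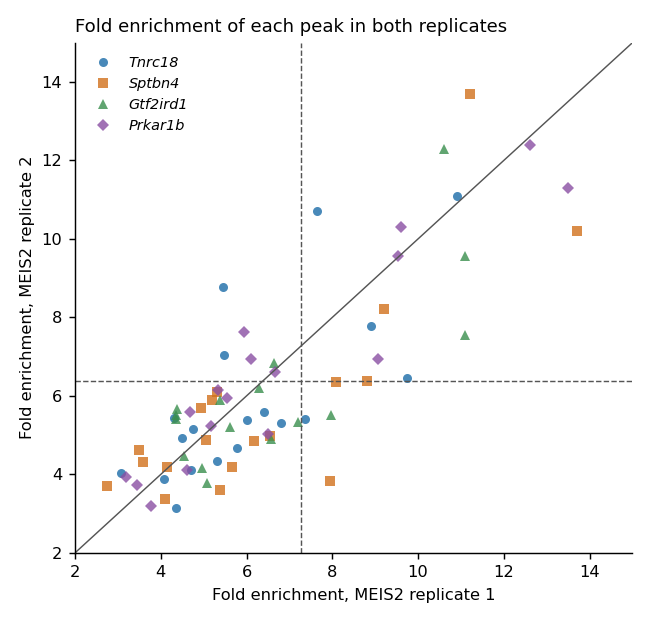
Fold enrichment of the 71 reproducible peaks in replicate 1 (x axis) and replicate 2 (y axis), 1 point per peak, marked by locus. The solid line marks equal values and the dashed lines the medians of all reproducible peaks (7.26 and 6.38), and 16 of the 71 points lie beyond both.

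Relatives of the 4 genes did not reach these counts. Of 17 genes, namely the Tnrc18 relative Bahcc1, spectrins and ankyrins, the other TFII-I genes and protein kinase A subunits, 9 were above the median density of protein-coding genes, against 50.0% of all. Their own median was 2.18 distal peaks per 100 kb, and none reached the 6.86 of Prkar1b or 14 peaks. Of all protein-coding genes only 0.681% reached that density and 0.302% that count, so nothing is read from their absence among the relatives. Bahcc1 had 5.02 per 100 kb (8 peaks), and Sptb, the red cell beta spectrin, 4.35 (10 peaks). Among the partners of beta spectrins, Sptan1 had 0.603 per 100 kb, and Ank3, which encodes the ankyrin of the axon initial segment, 0.505 over a gene of 494 kb. Gtf2i and Gtf2ird2, on the same chromosome as Gtf2ird1, had 2.78 and 3.69, and part of the Gtf2i window overlaps that of Gtf2ird1. The other regulatory subunits of protein kinase A had 0.829 (Prkar1a), 3.16 (Prkar2a) and 0.984 (Prkar2b). Its catalytic subunits differed, with 4.05 at Prkaca and no distal peak at Prkacb. A reproducible peak within 1 kb of either gene end was found at 8 of the 17, against 52.4% of all protein-coding genes. Each of the 4 crowded genes had one too, but they were chosen for many peaks, so nothing is read from this. At Tnrc18 it was chr5:142725185-142725424, 716 bp inside the 3′ end, and at Sptbn4 it was the Blvrb peak.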

How the data were processed

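CUT&Tag peak lists of 2 MEIS2 libraries and 1 no-antibody library were used, grouped by the labels. Per the file headers, the authors called peaks library by library with MACS 2.2.7.1, without a control file, at a q cutoff of 0.05, keeping 1 tag per position. Bowtie2 2.3.4, Picard, Trimmomatic, the mm10 build and MACS2 2.1.4, another version than in the headers, appear in the submitters' processing notes. The deposited pileup is a signal in tags that was not adjusted for depth. Fold enrichment, as deposited, is a ratio computed inside 1 library. The deposited −log10 p-values and q-values are also set within 1 library. Of 74259592, 79760948 and 72763762 tags the caller kept 10.3%, 8.22% and 8.71%, so pileups are small whole numbers.

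Peaks were placed by summit, 1-based. Gene positions came from a RefSeq table of GRCm38.p6, and strand, starts and promoter sequences from a RefSeq promoter table, which matched 4 of 4 genes. Exons and introns were not told apart. The expected pileup was computed as pileup plus 1, over fold enrichment, minus 1. Where several replicate 2 peaks overlapped a peak, that of highest fold enrichment was its partner. The overlap, distance and counting steps were tested on simulated data (Python 3.11.15, numpy 2.4.6, pandas 2.3.3, scipy 1.17.1). No test compares the groups, since the control is 1 library.

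The members and lists were chosen with earlier results of these data known. Named were the 4 genes, their relatives, each locus's 3 strongest, widest and highest-pileup peaks, its closest and farthest pairs, peaks near gene ends, no-antibody peaks, neighbouring genes with peaks, and the genes next in rank. Other peaks were named after their values were seen. Some genes that fall under this rule are not reported here. Alternatives were −log10 q of at least 5, 50% reciprocal overlap, each MEIS2 replicate left out, other windows, and a gene-end distance of 2.5 kb. Distance from annotated starts and densities with gene-end peaks kept were added after seeing the data.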

Additional observations from a re-analysis of the deposited data

How the results depend on the processing

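Over the 4 loci together, the 71 reproducible peaks became 42 with −log10 q of at least 5 and 44 in gene bodies alone, where less sequence is counted. Leaving out a MEIS2 replicate gave 85 to 110 peaks (110 without replicate 2), of which 75 to 92 were distal, since a partner is then not required. The 62 distal peaks became 37 with −log10 q of at least 5. The median replicate 1 fold enrichment of 5.62 was 6.73 with −log10 q of at least 5, 5.86 with 50% reciprocal overlap, 5.97 in gene bodies alone, 6.0 with 100 kb on each side, and 5.31 to 5.34 with a replicate left out. The median pileup of 17 was 21 with −log10 q of at least 5 and 12 to 16 with a replicate left out, and the median width of 353 bp was 268 to 302 bp. The median spacing of 7.94 kb was 12.9 kb with −log10 q of at least 5, 7.12 kb in gene bodies alone, 8.74 kb with 100 kb on each side, and 6.16 to 7.64 kb with a replicate left out. With replicate 1 left out, these medians are those of replicate 2 peaks, on that library's own scale. Changes of medians were judged against the SD between 2 replicates, which is itself poorly known. Changes of counts and densities were judged against a limit of 1.5-fold. The total of distal peaks was 54 with 50% reciprocal overlap, 56 with a gene-end distance of 2.5 kb and 53 with distance from annotated starts. Flank density at Sptbn4 went from 5 to 9 per 100 kb with peaks at gene ends kept. Including this one, 71 values other than the totals above, nearly all for single genes, moved by more than these limits and 83 did not. No paired analysis was possible because the control is 1 library and no result comes from a test.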
